A study of Mus musculus with 51 samples.

Results

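CD8+ T cells that carried both CD103 and CD69 were compared with CD8+ T cells that carried CD69 alone, both sorted from untreated AT3-OVA mammary tumors of mice at week 1. The comparison used 6 of the 51 libraries of the series, chosen by the week and the sorted subset in their titles: 3 of CD103+CD69+ cells and 3 of CD103-CD69+ cells. The AT3-OVA line comes from a mammary carcinoma of mice and carries ovalbumin, a model antigen that T cells can recognise. All 6 libraries share the tumor line, the CD8 and CD69 gates, the week and the absence of treatment, and differ in the CD103 gate. The 2 libraries of CD103-CD69- cells of week 1 are given beside them, and 10 CD103+CD69+ and 8 CD103-CD69+ libraries of weeks 2, 4 and 6 serve for the comparison over time. The labels give no strain, sex or age of the mice, do not say from what event the weeks were counted, and do not say whether a replicate is 1 animal or a pool. The p-values therefore measure only a spread between libraries. That spread was estimated per gene over all 43 untreated libraries in 15 groups, which include other weeks and spleen T cells, and not from the 6 libraries alone.

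CD103 is the alpha E integrin subunit, encoded by Itgae, which pairs with the beta 7 subunit and binds E-cadherin on epithelial cells. CD69 is a surface protein that opposes the receptor S1PR1 and so holds T cells in tissue. Cells with both proteins are the usual definition of resident memory CD8 T cells in epithelial tissues, where TGF-beta induces CD103, and cells with CD69 alone can be resident or recently activated.

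Messenger RNA was read by QuantSeq, a method that sequences 1 tag near the 3' end of each transcript. The deposited values were already normalized and on a log scale, which was taken as log2. The untreated table held 10560 genes in 43 libraries. The medians of the 8 week 1 libraries lay between 8.21 and 8.36, while single genes ran from -28.26 to 41.47, so a level has no meaning as an abundance and was compared within 1 gene only. Below, a level is a deposited value, a difference is the CD103+CD69+ mean minus the CD103-CD69+ mean on the log2 scale, and a gene is called at a limma adjusted p below 0.05 over all genes of the table. Read counts were not used here, and the depth of each library is unknown.

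Itgae transcripts did not separate the CD69+ subsets at week 1, and neither did those of Cd69, for which both subsets were gated positive. Itgae had levels of 14.22, 13.70 and 14.05 in the CD103+CD69+ replicates, of 12.81, 12.69 and 14.04 in the CD103-CD69+ replicates, and of 14.00 and 11.80 in the CD103-CD69- replicates. Replicate 3 of the CD103-CD69+ libraries and replicate 1 of the CD103-CD69- libraries thus lay inside the CD103+CD69+ range, and the groups overlapped. The difference of 0.81 (SE 0.56) was not called (limma adjusted p = 0.343, exact two-sided permutation p = 0.2, where 3 against 3 libraries allow no p below 0.1). Cd69 had levels of -0.03, 0.38 and -1.28 in the CD103+CD69+ replicates and of 0.25, 0.32 and 0.36 in the CD103-CD69+ replicates. Its lowest value was that of CD103+CD69+ replicate 3, below both CD103-CD69- libraries at -0.52 and -0.57, and the difference of -0.62 (SE 0.36) was not called (adjusted p = 0.252). Since replicate 3 of the CD103-CD69+ libraries stood apart in Itgae and replicate 3 of the CD103+CD69+ libraries in Cd69, the count over all genes and the list counts that move by over 1.5 times are also given without both of them. Itgae lies at chr11:73090583-73147446 on the plus strand and Cd69 at chr6:129267325-129275436 on the minus strand of GRCm38.

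Cd8a, the CD8 alpha chain by which all of these cells were sorted, was lower in CD103+CD69+ cells. Its levels were 8.36, 8.38 and 8.26 in the CD103+CD69+ libraries, 9.48, 9.56 and 9.60 in the CD103-CD69+ libraries, and 9.26 and 9.57 in the CD103-CD69- libraries. All 3 CD103+CD69+ values lay below all others, with a difference of -1.22 (SE 0.13, adjusted p = 6.04e-06) that was called under each of the 16 alternatives. Krt8, a keratin of simple epithelium and so a marker of tumor cells, had levels of 11.76, 12.58 and 10.54 in the CD103+CD69+ libraries and of 11.07, 11.14 and 10.44 in the CD103-CD69+ libraries, but only 6.19 and 7.47 in the CD103-CD69- libraries. The 2 CD69+ subsets overlapped (difference 0.74, SE 0.63, adjusted p = 0.457), and each exceeded the CD103-CD69- cells, by 4.80 and by 4.06 (adjusted p = 7.5e-05 and 0.00277). Cd8a lies at chr6:71373427-71379173 on the plus strand and Krt8 at chr15:101996698-102004482 on the minus strand of GRCm38.

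**Figure D1:**
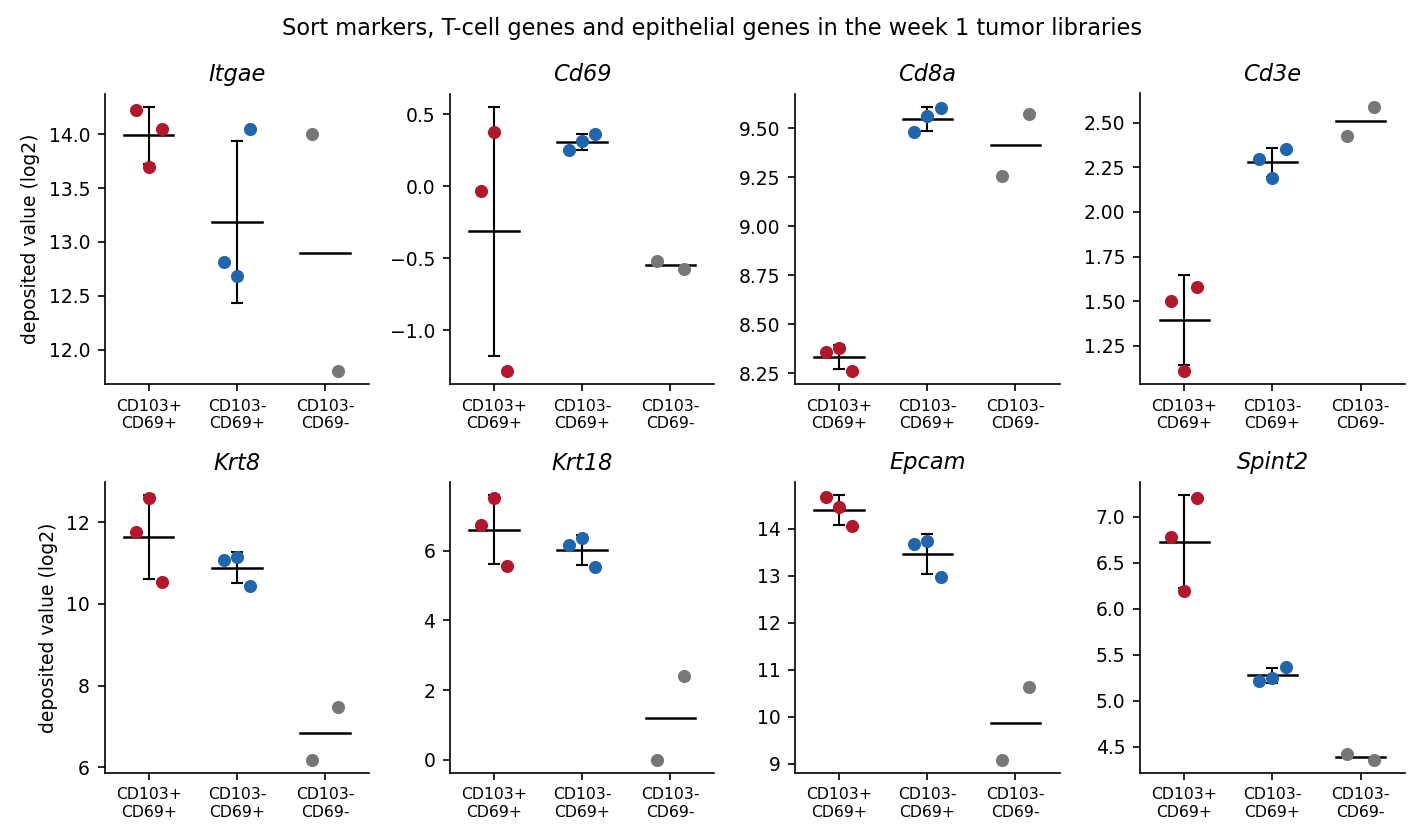
Deposited log2 value (vertical axis) of 8 genes in each week 1 tumor library, by sorted subset; points are libraries, lines are means and bars are SD for the subsets of 3. Itgae and Cd69 overlapped between the CD69+ subsets, Cd8a differed by -1.22 between the CD69+ subsets, and Krt8 was lowest in the CD103-CD69- libraries at 6.19 and 7.47.

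At week 1 the 2 CD69+ subsets differed in many genes. Of 10560 genes, 1835 were called (17.4%), of which 625 were higher (5.92%) and 1210 lower (11.5%) in CD103+CD69+ cells, and the median difference over all genes was -0.05. The groups did not overlap in 3823 genes (36.2%). The count rests on how the spread is estimated. The median SD over genes was 0.289 among the CD103+CD69+ libraries and 0.167 among the CD103-CD69+ libraries. A fit with array weights, 1 scale factor for each group common to all genes, called 552 genes (5.23%), 131 higher and 421 lower. All of them were among the 1835. Below, a spread for each group means this fit. A fit to the 6 libraries alone gave 822 calls, 336 higher and 486 lower, of which 719 were shared. Without the 2 libraries numbered 3 there were 1028 calls, 307 higher and 721 lower, of which 974 were shared. The excess of lower over higher calls depends on the scaling: 34.1% of the calls were higher, against 41.8% after quantile normalization and 48.6% after each library was shifted to 1 median. A set of 378 genes, 101 higher and 277 lower, was called in all 17 settings tried.

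**Figure D2:**
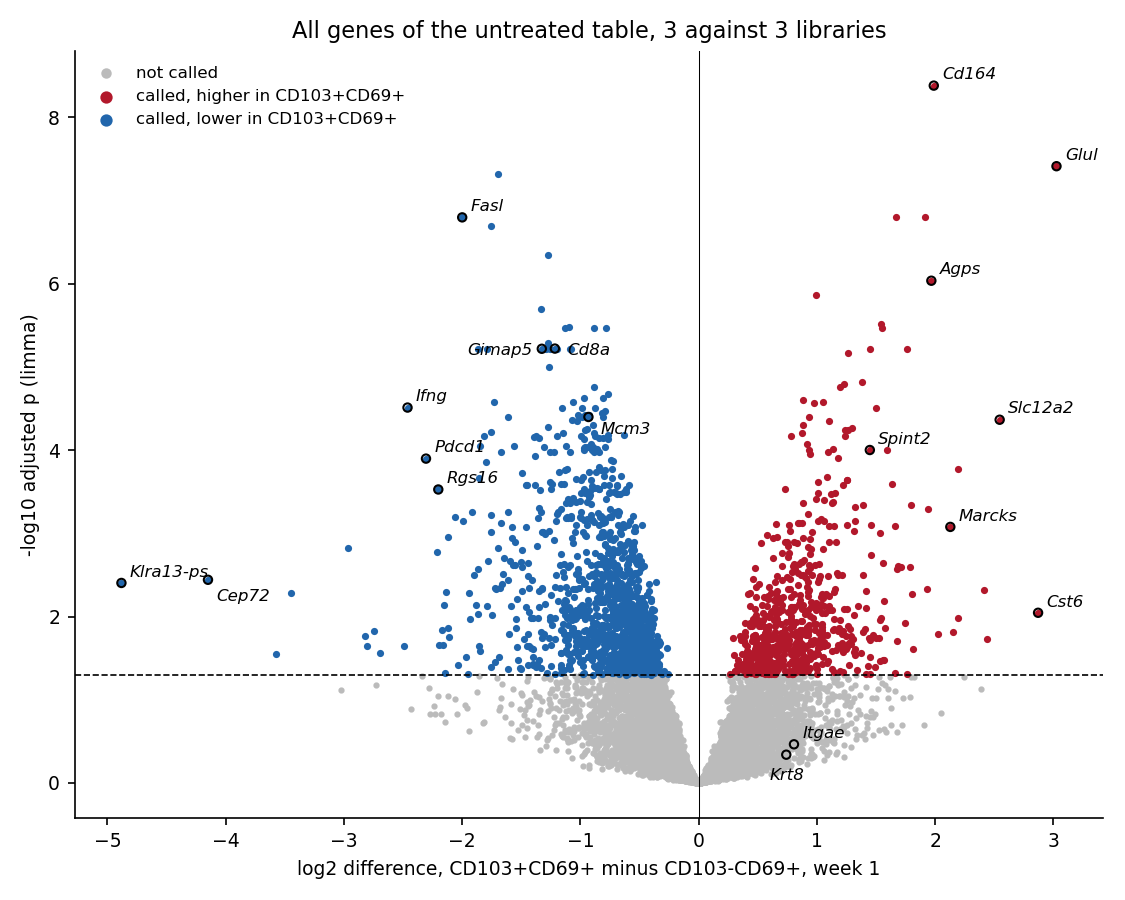
Difference between CD103+CD69+ and CD103-CD69+ libraries at week 1 (horizontal axis, log2) against the -log10 of limma's adjusted p (vertical axis) for 10560 genes; the dashed line is the threshold of 0.05, red points are the 625 genes called higher and blue points the 1210 called lower. Glul and Cd164 stand at the upper right, Fasl, Cd8a and Gimap5 at the upper left, and Itgae and Krt8 lie under the line.

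The genes with the largest higher values in CD103+CD69+ cells included an enzyme, an ion transporter and membrane proteins. Glul, the glutamine synthetase, had levels of 6.13, 6.39 and 5.69 in the CD103+CD69+ libraries, of 3.16, 3.22 and 2.75 in the CD103-CD69+ libraries, and of 2.10 and 2.17 in the CD103-CD69- libraries. The 3 subsets did not overlap, and the difference between the CD69+ subsets was 3.03 (SE 0.22, adjusted p = 3.89e-08). Slc12a2, a sodium, potassium and chloride cotransporter, had levels of 11.45, 11.83 and 10.94 against 8.96, 9.11 and 8.53, with 6.03 and 6.36 in the CD103-CD69- libraries, in the same order (difference 2.55, SE 0.34, adjusted p = 4.33e-05). Cd164, a sialomucin of endosomes and the cell surface, had levels of 6.33, 6.48 and 6.41 against 4.50, 4.46 and 4.29 with no overlap (difference 1.99, SE 0.13, adjusted p = 4.19e-09). Agps, a peroxisomal enzyme of ether lipid synthesis, differed by 1.97 (SE 0.19, adjusted p = 9.25e-07), and Marcks, a membrane and actin binding substrate of protein kinase C, by 2.13 (SE 0.39, adjusted p = 0.000839). These 5 genes were called in all 17 settings. Rny3, a small noncoding Y RNA, differed by 2.19 (SE 0.34, adjusted p = 0.000168). Glul lies at chr1:153899944-153909723 (plus), Cd164 at chr10:41519414-41531048 (plus), Agps at chr2:75832177-75931350 (plus) and Marcks at chr10:37133375-37138920 (minus) of GRCm38.

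In 3 further leading genes, Cst6, Rnf128 and Smim6, the CD103-CD69+ libraries were the low ones and the CD103-CD69- libraries lay inside the CD103+CD69+ range. Cst6, an inhibitor of cysteine proteases, had levels of 7.48, 8.61 and 8.89 in the CD103+CD69+ libraries, of 5.66, 5.56 and 5.16 in the CD103-CD69+ libraries, and of 8.61 and 7.51 in the CD103-CD69- libraries (difference 2.87, SE 0.72, adjusted p = 0.00902). Rnf128, a ubiquitin ligase known from T-cell anergy, had levels of 2.83, 2.04 and 3.38 against -0.26, 0.90 and 1.01, with 2.42 and 3.16 in the CD103-CD69- libraries (difference 2.20, SE 0.56, adjusted p = 0.0104). Smim6 differed by 2.42 (adjusted p = 0.00482). Aipl1 differed by 2.44 (adjusted p = 0.0187), and its CD103-CD69- values of 8.44 and 8.05 overlapped the CD103-CD69+ range. With a spread for each group none of these 4 was called (adjusted p between 0.056 and 0.14), the call of Rnf128 ended without CD103-CD69+ replicate 1 (adjusted p = 0.0529), and that of Aipl1 without CD103+CD69+ replicate 2, CD103-CD69+ replicate 2 or CD103-CD69+ replicate 3 (0.0565, 0.0657 and 0.0607).

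Among the largest lower values, Ifng and Pdcd1 had replicates close together. Ifng, interferon-gamma, had levels of 4.24, 4.56 and 3.41 in the CD103+CD69+ libraries, of 6.48, 6.68 and 6.44 in the CD103-CD69+ libraries, and of 5.88 and 6.78 in the CD103-CD69- libraries. Pdcd1, the inhibitory receptor PD-1, had levels of 12.86, 12.92 and 13.23, of 15.20, 15.12 and 15.62, and of 15.43 and 16.60 in the same order. In both genes the CD103+CD69+ libraries lay below all others, with differences of -2.46 (SE 0.32, adjusted p = 3.09e-05) and -2.31 (SE 0.35, adjusted p = 0.000127) that were called in all 17 settings. Ifng lies at chr10:118441046-118445892 (plus) and Pdcd1 at chr1:94038305-94052553 (minus) of GRCm38.

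In the other 8 of the 10 largest lower values, as in Ifng, CD103+CD69+ replicate 3 was the lowest library of the 6. Cep72, a centrosomal protein, had levels of 10.17, 10.52 and 6.56 in the CD103+CD69+ libraries and of 13.44, 13.26 and 12.99 in the CD103-CD69+ libraries (difference -4.15, SE 0.91, adjusted p = 0.00362) and was called in all 17 settings. Lin52, a subunit of a cell cycle repressor complex, had levels of 18.49, 17.36 and 15.14 against 20.35, 19.88 and 19.67 (difference -2.97, SE 0.58, adjusted p = 0.00149). Fpgt, an enzyme of fucose salvage, had levels of 17.13, 15.42 and 12.10 against 19.00, 18.20 and 17.81 (difference -3.45, SE 0.80, adjusted p = 0.00518). The groups did not overlap in these 3 genes. Rasl11b differed by -2.75, Gcsh, a subunit of the glycine cleavage system, by -2.70, AL672278.1 by -2.49, and Xlr3b by -2.81. Without CD103+CD69+ replicate 3 these 4 differed by -1.63, -1.13, -1.40 and -1.49 and were not called (adjusted p = 0.0917, 0.155, 0.144 and 0.14). The calls of AL672278.1, Gcsh and Xlr3b also ended without CD103-CD69+ replicate 1 (adjusted p between 0.0576 and 0.0821), and those of Gcsh and Xlr3b without CD103-CD69+ replicate 2 (0.0675 and 0.0742). Klra13-ps, a pseudogene of the Ly49 receptor family, had the largest difference at -4.88 (SE 1.09, adjusted p = 0.00395). Klra13-ps and Xlr3b have near-identical relatives, among which the counting may have divided reads, so their values are uncertain.

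**Figure D3:**
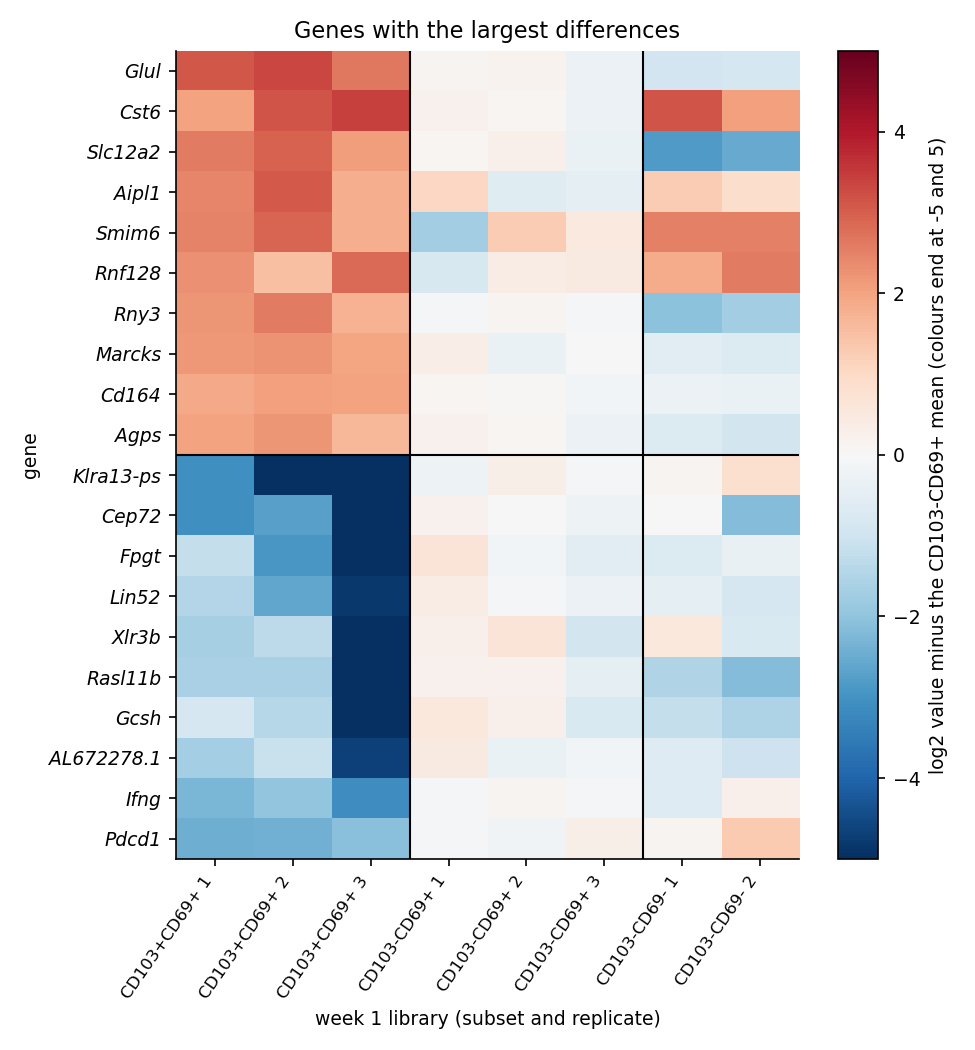
Level of the 10 genes with the largest higher and the 10 with the largest lower values (vertical axis) in each week 1 tumor library (horizontal axis), as the log2 value minus the CD103-CD69+ mean; red is higher, blue is lower and colours end at -5 and 5. Cst6, Smim6 and Rnf128 were as high in the CD103-CD69- libraries as in the CD103+CD69+ libraries, and CD103+CD69+ replicate 3 was the lowest library for Cep72, Fpgt, Lin52, Xlr3b, Rasl11b, Gcsh and AL672278.1.

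Genes of T-cell identity were lower in CD103+CD69+ cells. Of 20 genes of the T-cell receptor complex, its coreceptor and its proximal signalling, 14 were called lower and none higher. Over all genes, 11.5% were called lower and 5.92% higher. All 20 had a difference below 0, and the median was -0.68 against -0.05 over all genes. Cd3g, a CD3 chain, had levels of 4.73, 4.81 and 4.67 in the CD103+CD69+ libraries and of 5.51, 5.58 and 5.82 in the CD103-CD69+ libraries (difference -0.90, SE 0.16, adjusted p = 0.000688). Trbc2, a constant segment of the receptor beta chain, had levels of 2.92, 2.42 and 3.19 against 3.72, 4.14 and 3.78 (difference -1.03, SE 0.18, adjusted p = 0.00042). The groups did not overlap in either gene. Trac, the constant segment of the alpha chain, differed by -1.07 (adjusted p = 0.0337), and its call ended without CD103+CD69+ replicate 1 or 3 or CD103-CD69+ replicate 2 or 3 (adjusted p between 0.0548 and 0.105). Of the 6 not called, Sh2d1a had the largest difference, -1.32, with an adjusted p of 0.103. With array weights for each group, 10 members were called lower, and without the 2 libraries numbered 3 there were 12. The mean over the 20 genes, each centred on its mean over the 8 week 1 libraries, lay between -0.52 and -0.37 in the CD103+CD69+ libraries, between 0.19 and 0.32 in the CD103-CD69+ libraries and between 0.14 and 0.44 in the CD103-CD69- libraries. In a bulk library, fewer T cells and less of these transcripts per T cell cannot be told apart.

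The Gimap genes, which encode GTPases of lymphocyte survival and lie together on chromosome 6, were lower as well. Of 8 members 7 were called lower, where 11.5% of all genes were. In all 8 the 3 CD103+CD69+ values lay below the 3 CD103-CD69+ values (21.5% of all genes did so). The median difference was -0.94. Gimap5 had levels of 8.32, 8.34 and 7.88 against 9.74, 9.48 and 9.32 (difference -1.33, SE 0.15, adjusted p = 6.08e-06). Gimap4 differed by -1.27, Gimap3 by -1.09 and Gimap6 by -0.94, and all 4 named members were called in all 17 settings. Under array weights for each group, 6 members were called.

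Inhibitory receptors and other genes of the exhaustion program were lower in CD103+CD69+ cells. Of 22 members 14 were called lower and none higher, with a median of -0.99, where 11.5% of all genes were called lower. Besides Pdcd1, Rgs16, a regulator of G-protein signalling, had levels of 5.13, 4.52 and 5.40 in the CD103+CD69+ libraries and of 6.82, 6.88 and 7.96 in the CD103-CD69+ libraries, with no overlap (difference -2.20, SE 0.36, adjusted p = 0.000298). Tigit, an inhibitory receptor, had levels of 8.81, 8.94 and 9.74 against 11.00, 10.52 and 11.57 (difference -1.86, SE 0.47, adjusted p = 0.00927). Nr4a2, a nuclear receptor induced by T-cell receptor signals, differed by -1.94 (SE 0.45, adjusted p = 0.00524). Havcr2, which encodes TIM-3 and was picked after its values were seen, differed by -1.50 (SE 0.30, adjusted p = 0.00157). Tox, a transcription factor of exhaustion also picked after its values were seen, had levels of 7.57, 7.79 and 8.15 against 8.13, 8.07 and 8.43, and its difference of -0.37 was not called (adjusted p = 0.306). With group-wise spread, 6 members were called, among them Pdcd1 and Rgs16 but not Tigit (adjusted p = 0.0926) or Nr4a2 (0.0592). Without the 2 libraries numbered 3 there were 8.

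Some cytotoxic genes and cytokines were lower as well. Of 15 cytotoxic genes 7 were called lower and none higher, with a median of -0.93, where 11.5% of all genes were called lower. Fasl, the ligand of the death receptor FAS, had levels of 7.23, 7.53 and 7.40 in the CD103+CD69+ libraries, of 9.60, 9.22 and 9.35 in the CD103-CD69+ libraries, and of 9.61 and 9.78 in the CD103-CD69- libraries (difference -2.00, SE 0.17, adjusted p = 1.6e-07). Nkg7, a protein of cytotoxic granules, had levels of 3.05, 3.45 and 3.43 against 4.47, 4.81 and 4.83 (difference -1.40, SE 0.20, adjusted p = 7e-05). In both genes the CD103+CD69+ libraries were the lowest. Cst7, an inhibitor of granule proteases, differed by -1.44 (adjusted p = 0.00227), and Gzmk, granzyme K, by -2.17 (adjusted p = 0.0147), a call that ended without CD103+CD69+ replicate 3 or CD103-CD69+ replicate 1 (adjusted p = 0.0844 and 0.0519). Gzmb and Prf1, the granzyme B and perforin of the killing machinery, were picked after their values were seen: they differed by -1.35 and -0.68 and were not called (adjusted p = 0.149 and 0.355), although neither overlapped between the CD69+ subsets. When the spread was set per group, 5 cytotoxic genes were called, and without the 2 libraries numbered 3 there were 6.

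Of 15 cytokine and chemokine genes 4 were called lower and none higher, with a median of -0.58: Ifng, Cxcl10, Ccl5 and Ccl4. The share called lower over all genes was 11.5%. Ccl5, a chemokine of effector T cells, had levels of -2.25, -1.98 and -2.23 in the CD103+CD69+ libraries, of -0.56, -0.41 and -0.48 in the CD103-CD69+ libraries, and of 0.33 and 0.93 in the CD103-CD69- libraries. The 3 subsets did not overlap, and the difference was -1.67 (SE 0.25, adjusted p = 0.000107). Ccl4 differed by -1.59 (adjusted p = 0.00738). Cxcl10, a chemokine induced by interferon-gamma, differed by -2.16 (adjusted p = 0.0221) and by -1.29 without CD103+CD69+ replicate 3, where its call ended (adjusted p = 0.138), as it did without CD103-CD69+ replicate 1 or 3 (0.0619 and 0.0607). Of 13 receptors of the natural killer type, which effector CD8 T cells also carry, 5 were called lower and none higher, with a median of -1.58, and 3 were called lower both without the 2 libraries numbered 3 and with array weights for each group. Klrd1, which encodes CD94, had levels of 3.27, 2.16 and 3.56 against 4.49, 4.48 and 4.87 (difference -1.61, SE 0.28, adjusted p = 0.000561). Its partner Klrc1 differed by -1.87 (adjusted p = 0.00267) and Cd160 by -1.58 (adjusted p = 0.00113), and these 3 were called in all 17 settings. Klrk1, which encodes NKG2D, differed by -1.85 (adjusted p = 0.0256), and its call ended without CD103+CD69+ replicate 3 or CD103-CD69+ replicate 1 (0.0517 and 0.0633).

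Receptors for cytokines were lower too. Of 15 members 10 were called lower and none higher, with a median of -0.73, and 5 were called with a spread for each group. Il2rb, a chain shared by the receptors of IL-2 and IL-15, had levels of 6.09, 6.06 and 6.67 in the CD103+CD69+ libraries and of 7.43, 7.62 and 7.89 in the CD103-CD69+ libraries, with no overlap (difference -1.37, SE 0.19, adjusted p = 6.83e-05). Il2ra differed by -1.19 (adjusted p = 0.00647), Il12rb1 by -1.11 (0.00254) and Il12rb2, which completes the IL-12 receptor, by -1.44 (0.00882). The call of Il12rb2 ended without CD103+CD69+ replicate 3 (difference -1.06, adjusted p = 0.0521). Of 19 chemokine receptors and integrins 7 were called lower and none higher, with a median of -0.52, where 11.5% of all genes were called lower. Itgb2, the integrin chain of LFA-1, had levels of 6.31, 6.19 and 6.25 against 7.16, 7.16 and 7.07 (difference -0.88, SE 0.12, adjusted p = 6.83e-05). Cx3cr1, the fractalkine receptor, differed by -1.15 (adjusted p = 0.0124). The median of the chemokine receptor and integrin list was -0.18 without CD103+CD69+ replicate 3 and -0.10 without both libraries numbered 3, where 5 members were called.

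Genes known from resident memory cells were not higher as a list in the CD103+CD69+ cells. Of 26 members 10 were called lower and 1 higher, with a median of -0.64. The shares over all genes were 11.5% lower and 5.92% higher. Rgs1, a regulator of G-protein signalling that limits exit from tissue, had levels of 4.99, 5.13 and 5.37 in the CD103+CD69+ libraries, of 6.70, 6.69 and 7.35 in the CD103-CD69+ libraries, and of 6.96 and 6.67 in the CD103-CD69- libraries (difference -1.76, SE 0.33, adjusted p = 0.000956). Cxcr6, a chemokine receptor of resident cells, had levels of 6.25, 6.07 and 6.49 against 7.56, 7.40 and 7.86 (difference -1.34, SE 0.22, adjusted p = 0.000298). Both genes were lowest in the CD103+CD69+ libraries, and both were called in all 17 settings. Zfp683, which encodes the residency factor Hobit, differed by -1.42 (adjusted p = 0.024) and lost its call without CD103+CD69+ replicate 3, CD103-CD69+ replicate 1 or CD103-CD69+ replicate 3 (adjusted p between 0.0697 and 0.0908). Ctla4, an inhibitory receptor that the list shares with the exhaustion list, differed by -1.61 (adjusted p = 0.0161) and lost its call without CD103-CD69+ replicate 3 (0.0757). The gene called higher was Cdh1, which encodes E-cadherin, the ligand of CD103: its levels were 4.68, 4.41 and 4.05 against 2.68, 2.88 and 3.22, and its difference of 1.45 (adjusted p = 0.0494) lost the call on leaving out any 1 of the 6 libraries (0.0556 to 0.121). Fitted with a spread per group, 3 members were called lower and none higher. Leaving out CD103-CD69+ replicate 1 or replicate 3 gave 6 and 5 lower calls, and leaving out both libraries numbered 3 gave 5.

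Of 20 genes of circulating memory and homing 4 were called lower and none higher, with a median of -0.27, where 11.5% of all genes were called lower. Ly6c2 differed by -1.35 (adjusted p = 0.00779), and the transcription factors Eomes and Tbx21, which drive effector CD8 T cells, by -0.98 and -0.85 (adjusted p = 0.0336 and 0.0155). The median was 0.07 without CD103+CD69+ replicate 3, no member was called without both libraries numbered 3, and 1 was called with array weights for each group. Eomes lost its call without CD103+CD69+ replicate 1 or 3 or CD103-CD69+ replicate 1 or 2 (adjusted p between 0.0691 and 0.118), and Tbx21 without CD103-CD69+ replicate 2 (0.0553), which left 2 calls in the list. S1pr1 and Tcf7, which encode an exit receptor and TCF-1 and were picked after their values were seen, differed by 0.48 and -0.08 with overlapping groups (adjusted p = 0.543 and 0.878). None of the 18 genes of the TGF-beta pathway was called in either direction by limma, where 17.4% of all genes were called. An unadjusted p below 0.05 was found for 2 of the 18 and for 31.1% of all genes. Itgae itself is a member, and Tgfbr1, a receptor chain, had levels of 7.34, 6.47 and 6.22 against 7.35, 7.37 and 7.58 (difference -0.76, adjusted p = 0.08). Without CD103+CD69+ replicate 1 Tgfbr1 was called (difference -1.09, adjusted p = 0.0122). The median of the TGF-beta list, -0.07, was 0.00 after quantile normalization, 0.01 after the shift to 1 median, 0.02 without CD103+CD69+ replicate 3 and 0.11 without both libraries numbered 3.

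**Figure D4:**
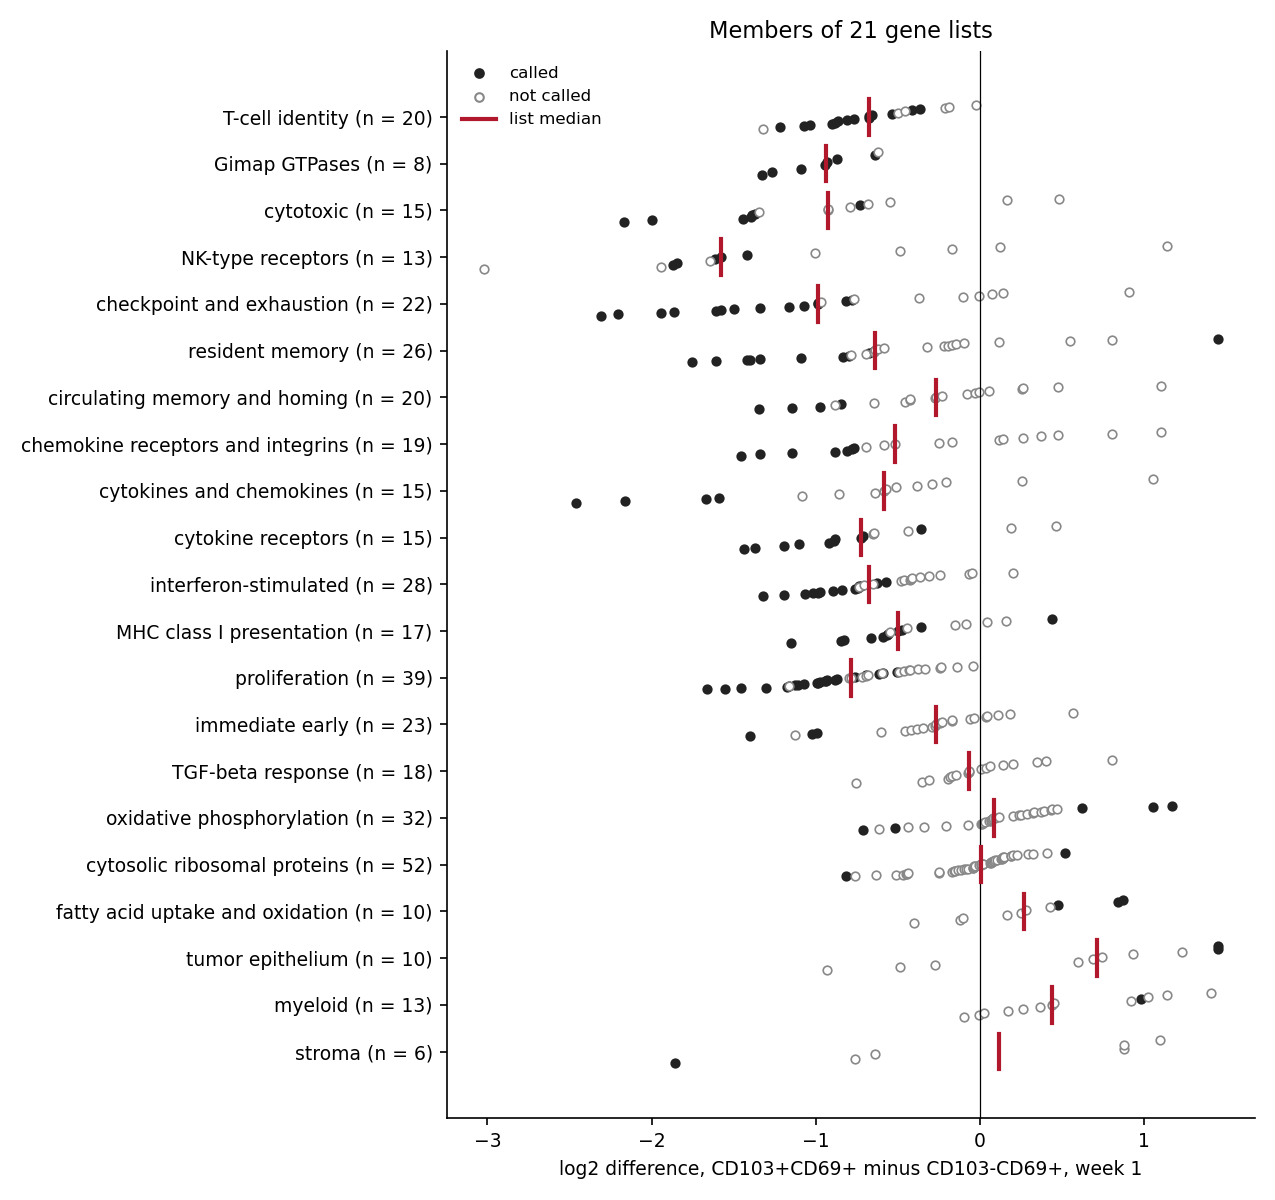
Difference between CD103+CD69+ and CD103-CD69+ libraries at week 1 (horizontal axis, log2) of each measured member of 21 gene lists (vertical axis); filled points were called, open points were not, and red bars are list medians. The medians of T-cell identity, Gimap, cytotoxic, exhaustion and proliferation genes lay between -0.99 and -0.68, those of ribosomal protein and oxidative phosphorylation genes at 0.00 and 0.08, and that of tumor epithelium genes at 0.71.

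Genes of DNA replication and mitosis were lower in CD103+CD69+ cells. Of 39 members 22 were called lower and none higher, where 11.5% of all genes were called lower. All 39 had a difference below 0, and the median was -0.79. Rrm2, a subunit of ribonucleotide reductase, had levels of -1.51, -1.56 and -1.58 in the CD103+CD69+ libraries and of 0.09, 0.07 and -0.16 in the CD103-CD69+ libraries, with no overlap (difference -1.55, SE 0.32, adjusted p = 0.00241). Ccnb2, a mitotic cyclin, had levels of 7.22, 7.54 and 5.78 against 8.38, 8.88 and 8.28 (difference -1.66, SE 0.37, adjusted p = 0.00411). Cdk1 and Kif11, a mitotic kinase and a spindle motor, differed by -1.46 and -1.31 (adjusted p = 0.0226 and 0.0162). Cdk1 lost its call without CD103-CD69+ replicate 1 or 2 (0.0533 and 0.0577), and Kif11 without CD103+CD69+ replicate 3 or CD103-CD69+ replicate 1 (0.0603 and 0.0508). Mki67, which encodes the proliferation marker Ki-67 and was picked after its values were seen, had levels of 4.41, 4.37 and 4.09 against 5.50, 5.52 and 5.34 (difference -1.16, SE 0.20, adjusted p = 0.000518). With a spread for each group 10 members were called, and without the 2 libraries numbered 3 there were 12. The 2 CD103-CD69- libraries differed from each other in these genes, with a centred mean of 0.38 in replicate 1 and -0.16 in replicate 2, where the CD103+CD69+ libraries had -0.35, -0.26 and -0.68.

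E2F factors, which switch on genes of S phase, bind motifs such as TTTCCCGC near start sites. This 8-base string was searched on both strands in the windows from 250 bases before to 50 bases after each start in RefSeq (GRCm38.p6), and 1.07% of all 32851 windows held it. Counted per gene, 2.72% of the 7684 measured genes with a window held it. Of 35 proliferation genes with a window 4 held it, 3 of 19 called lower and 1 of 16 not called. The 200 bases before the start are printed for 2 of the called genes, Cdc6, a loader of the replicative helicase, and Mcm7, a subunit of that helicase. Capitals mark the motif, here on the opposite strand. Cdc6 is shown from chr11:98907951-98908150 on the plus strand and Mcm7 from chr5:138171884-138172083 on the minus strand.
Cdc6: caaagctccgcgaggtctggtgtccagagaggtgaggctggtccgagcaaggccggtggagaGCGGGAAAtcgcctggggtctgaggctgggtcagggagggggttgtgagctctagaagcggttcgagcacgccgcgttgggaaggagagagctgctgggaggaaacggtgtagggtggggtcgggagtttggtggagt
Mcm7: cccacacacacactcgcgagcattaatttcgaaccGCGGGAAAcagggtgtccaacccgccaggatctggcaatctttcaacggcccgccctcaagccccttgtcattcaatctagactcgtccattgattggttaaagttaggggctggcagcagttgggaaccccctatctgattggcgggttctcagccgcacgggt
Cdc6 had levels of 11.18, 11.29 and 10.73 against 12.21, 11.96 and 11.99 (difference -0.99, SE 0.25, adjusted p = 0.00849), and Mcm7 of 4.14, 4.17 and 4.20 against 4.77, 4.77 and 4.83 (difference -0.62, SE 0.10, adjusted p = 0.000323). A match describes the letters of the window and says nothing of binding in these cells.

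Interferon-stimulated genes were lower in CD103+CD69+ cells. Of 28 members 14 were called lower and none higher, with a median of -0.68, where 11.5% of all genes were called lower. Irf7, a transcription factor that amplifies the interferon response, had levels of 7.16, 7.01 and 7.26 in the CD103+CD69+ libraries, of 8.11, 8.11 and 8.81 in the CD103-CD69+ libraries, and of 8.20 and 8.02 in the CD103-CD69- libraries (difference -1.20, SE 0.21, adjusted p = 0.000595). Oas3, an enzyme that senses double-stranded RNA, had levels of 9.16, 8.82 and 8.39 against 9.72, 9.78 and 10.05 (difference -1.06, SE 0.21, adjusted p = 0.00129). Ifit2 and Ifit3, antiviral proteins of the IFIT family, differed by -1.32 and -1.02 (adjusted p = 0.00452 and 0.003). In all 4 genes the CD103+CD69+ libraries lay below the CD103-CD69+ libraries. CD103-CD69+ replicate 3 was the highest of the 6 libraries, with a centred mean of 0.59 over the list against 0.02 and 0.08 in the other replicates of that subset. Without it 8 members were called lower and the median was -0.45, and without both libraries numbered 3 there were 7 calls. Under array weights for each group, 8 members were called.

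Interferons act through a promoter element, the ISRE, searched here as GAAA, any 2 bases and GAAA on both strands of the same windows. It was found in 3.44% of all windows, in 3.88% of the measured genes with a window, and in 10 of 19 interferon-stimulated genes that had a window: 6 of 9 called lower and 4 of 10 not called. The 200 bases before the start are printed for 4 of the genes called lower that hold it, with each match in capitals; a match on the opposite strand reads as its reverse complement. The windows are those of Ifit1 at chr19:34640689-34640888 on the plus strand, Ifit3 at chr19:34583329-34583528 on the plus strand, Oas3 at chr5:120777660-120777859 on the minus strand and Igtp at chr11:58199356-58199555 on the plus strand.
Ifit1: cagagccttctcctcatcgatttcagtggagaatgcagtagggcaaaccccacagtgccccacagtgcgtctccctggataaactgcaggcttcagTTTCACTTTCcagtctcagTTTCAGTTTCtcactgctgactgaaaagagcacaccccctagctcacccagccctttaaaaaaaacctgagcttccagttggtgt
Ifit3: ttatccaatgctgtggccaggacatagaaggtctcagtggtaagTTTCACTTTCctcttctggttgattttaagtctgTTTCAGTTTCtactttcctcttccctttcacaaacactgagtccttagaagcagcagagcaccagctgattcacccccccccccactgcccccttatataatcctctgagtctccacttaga
Oas3: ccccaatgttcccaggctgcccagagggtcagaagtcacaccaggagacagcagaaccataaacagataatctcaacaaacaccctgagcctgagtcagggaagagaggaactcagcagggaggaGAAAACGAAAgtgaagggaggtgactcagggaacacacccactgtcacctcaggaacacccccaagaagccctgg
Igtp: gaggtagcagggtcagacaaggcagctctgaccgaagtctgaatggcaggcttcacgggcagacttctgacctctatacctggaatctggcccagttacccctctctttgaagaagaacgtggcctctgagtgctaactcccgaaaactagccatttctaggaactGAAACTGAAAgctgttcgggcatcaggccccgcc
The windows of Ifit1 and Ifit3 hold 2 matches each, and those of Oas3 and Igtp 1. Ifit1 had levels of -0.46, 0.50 and 0.61 in the CD103+CD69+ libraries and of 1.02, 0.93 and 1.64 in the CD103-CD69+ libraries (difference -0.97, SE 0.29, adjusted p = 0.023), and Igtp, an interferon-induced GTPase, of 2.84, 2.59 and 2.60 against 3.37, 3.50 and 3.86 (difference -0.90, SE 0.16, adjusted p = 0.000696). Both were separated between the subsets. Isg15, whose window holds 3 matches, was not called (difference -0.31, adjusted p = 0.54).

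Presentation by MHC class I, which interferon also raises, had lower values. Of 17 members 10 were called lower and 1, Tap2, higher, with a median of -0.50. The shares over all genes were 11.5% lower and 5.92% higher. Nlrc5, the transactivator of class I genes, had levels of 11.85, 11.70 and 11.96 in the CD103+CD69+ libraries and of 12.62, 12.72 and 12.72 in the CD103-CD69+ libraries, with no overlap (difference -0.85, SE 0.13, adjusted p = 0.000159). Psme2, a proteasome activator subunit, differed by -0.83 (adjusted p = 0.00233), and Erap1, which trims peptides, by -0.66 (adjusted p = 0.0127), a call that ended without CD103+CD69+ replicate 3 (difference -0.42, adjusted p = 0.0754). H2-Q7 differed by -1.15 (adjusted p = 3.09e-05), but it has near-identical relatives and its value is uncertain. Tap2, a peptide transporter, had levels of 8.39, 8.37 and 8.81 against 7.98, 8.13 and 8.13 (difference 0.44, adjusted p = 0.0286), and no member was called higher without CD103+CD69+ replicate 3 or CD103-CD69+ replicate 1. Under array weights for each group, 6 members were called lower and none higher, and without both libraries numbered 3 there were 7 lower calls and no higher call. None of 7 MHC class II genes was called by limma, and 0 had an unadjusted p below 0.05 (median 0.41). Over all genes, limma called 17.4%, and 31.1% had an unadjusted p below 0.05. H2-Aa, a class II alpha chain, had levels of 0.88, 0.70 and 0.37 against -0.39, -0.37 and 0.53 (difference 0.72, adjusted p = 0.233), and H2-DMb2, which helps load class II, differed by -0.94 (adjusted p = 0.334).

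Genes of fatty acid oxidation had higher calls only, where 5.92% of all genes were called higher. Of 10 members 3 were called higher and none lower, with a median of 0.27, and 2 were called both without the 2 libraries numbered 3 and with array weights for each group. Cpt1a, the entry enzyme of mitochondrial fatty acid oxidation, had levels of 5.19, 5.13 and 5.41 in the CD103+CD69+ libraries and of 4.36, 4.47 and 4.28 in the CD103-CD69+ libraries (difference 0.87, SE 0.16, adjusted p = 0.000754). Acadl, an acyl-CoA dehydrogenase, had levels of 7.85, 7.59 and 7.72 against 6.68, 6.95 and 7.01 (difference 0.84, SE 0.15, adjusted p = 0.000757). Both were separated between the subsets and called in all 17 settings. Hadha, a subunit of the trifunctional protein, differed by 0.47 (adjusted p = 0.0167) and by 0.32 without CD103+CD69+ replicate 3, where its call ended (0.0912). Of 32 oxidative phosphorylation genes 3 were called higher and 2 lower (median 0.08), where 5.92% of all genes were called higher and 11.5% lower. Atp5g1 and Ndufa7, subunits of ATP synthase and of complex I, differed by 1.17 and 1.06 (adjusted p = 0.00298 and 0.00155), Ndufb7 by 0.62 (0.0166) and Sdhb, a subunit of complex II, by -0.71 (0.00828). Without CD103+CD69+ replicate 2 the list had 4 calls in each direction, and without CD103+CD69+ replicate 3 it had 1 lower call. Leaving out both libraries numbered 3 gave 3 higher calls and 1 lower, and array weights for each group gave 1 higher call. Of 24 glycolysis and hypoxia genes 1 was called higher and 3 lower (median -0.09), close to the shares of 5.92% and 11.5% over all genes. Pfkp, a phosphofructokinase, had levels of 5.19, 5.35 and 5.12 against 6.11, 6.13 and 6.05, the clearest of these (difference -0.88, SE 0.11, adjusted p = 3.09e-05), and Hk1, a hexokinase, differed by 0.29 (adjusted p = 0.0183). Higd1a differed by -0.96 (adjusted p = 0.02) and lost its call without CD103+CD69+ replicate 2 or CD103-CD69+ replicate 1 (0.0609 and 0.0614), and Ldha by -0.40 (adjusted p = 0.0499) and lost it without any 1 of 5 libraries, all but CD103+CD69+ replicate 2 (0.0516 to 0.124). The list had 1 lower call without CD103-CD69+ replicate 1 and 2 higher calls without CD103+CD69+ replicate 3. Leaving out both libraries numbered 3 gave 1 call in each direction, and array weights for each group gave 1 lower call.

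Of 52 ribosomal protein genes 1 was called higher and 1 lower, with a median of 0.00. Each count of calls in this paragraph stands beside shares of 5.92% higher and 11.5% lower over all genes. Rps12 differed by -0.81 (adjusted p = 0.0494) and Rpl6 by 0.52 (adjusted p = 0.0251). Rps12 lost its call without CD103+CD69+ replicate 2 or 3 or CD103-CD69+ replicate 1 or 2 (0.0559 to 0.181), and Rpl6 without CD103+CD69+ replicate 3 or CD103-CD69+ replicate 1 or 3 (0.0526 to 0.059). No ribosomal gene was called without both libraries numbered 3 or with array weights for each group. Of 23 immediate early genes 3 were called lower, where 11.5% of all genes were: Dusp5, Egr3 and Nfkbid, with differences of -1.40, -1.03 and -0.99 (adjusted p = 0.0104, 0.0259 and 0.000662). Without CD103+CD69+ replicate 3 the list had 1 lower and 1 higher call, and Dusp5 and Egr3 were not called (0.0517 and 0.124). Egr3 also lost its call without CD103-CD69+ replicate 2 or 3 (0.0605 and 0.0552). Nfkbid, an inhibitor of NF-kappaB, was called in all 17 settings. Of 14 genes of the unfolded protein response 3 were called lower, Creld2, Manf and Hspa5, with differences of -0.74, -0.73 and -0.54 (adjusted p = 0.000633, 0.00516 and 0.0104). The heat shock list had 2 lower calls among 11, Hsph1 and Hspa8 (-1.09 and -0.61, adjusted p = 0.0416 and 0.0398), and none without CD103+CD69+ replicate 3, CD103-CD69+ replicate 2 or CD103-CD69+ replicate 3 (adjusted p between 0.0583 and 0.152), and Hspa8 was not called without CD103+CD69+ replicate 1 either (0.0738). Of 12 p53 targets 3 were called lower: Fas, Bax and Mdm2 (-1.21, -0.77 and -0.63, adjusted p = 0.0104, 0.0233 and 0.00574). Bax lost its call without CD103+CD69+ replicate 3 or CD103-CD69+ replicate 2 or 3 (0.0597 to 0.119), and the list had 5 lower calls without CD103+CD69+ replicate 1. Without both libraries numbered 3, the immediate early, unfolded protein response and p53 lists had 1 lower call each and the heat shock list had none. With array weights for each group, the immediate early and unfolded protein response lists had 1 lower call each and the heat shock and p53 lists had none. Of 15 genes of cholesterol synthesis 2 were called lower, among them Hmgcs1 (-0.72, adjusted p = 0.038), whose call ended without CD103+CD69+ replicate 2 or 3 (0.0941 and 0.0768) or without any 1 of the CD103-CD69+ libraries (0.0592 to 0.0948). The list had no call without CD103+CD69+ replicate 2, any 1 of the CD103-CD69+ libraries or both libraries numbered 3, and none with array weights for each group.

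Markers of other cells were measured beside these changes, where 5.92% of all genes were called higher and 11.5% lower. Of the 10 tumor epithelium genes measured, 2 were called higher in CD103+CD69+ cells, Spint2 and Cdh1, and none lower, with a median of 0.71. A difference above 0 was found for 7 of the 10 and one below 0 for 3, the lowest at -0.93. In 4 genes all 3 CD103+CD69+ values lay above the 3 CD103-CD69+ values, and in 1 gene they lay below. Without the 2 libraries numbered 3, and with array weights for each group, 1 gene was called. Spint2, an epithelial protease inhibitor, had levels of 6.78, 6.20 and 7.20 in the CD103+CD69+ libraries, of 5.22, 5.25 and 5.37 in the CD103-CD69+ libraries, and of 4.42 and 4.36 in the CD103-CD69- libraries (difference 1.45, SE 0.21, adjusted p = 0.0001). The 3 subsets did not overlap, and the gene was called in all 17 settings. Epcam, an epithelial adhesion protein picked after its values were seen, had levels of 14.67, 14.47 and 14.06 against 13.67, 13.74 and 12.98, and 9.09 and 10.63 in the CD103-CD69- libraries, and was not called between the CD69+ subsets (difference 0.93, adjusted p = 0.129). The centred mean of the 10 genes was 1.04, 1.24 and 0.68 in the CD103+CD69+ libraries, 0.53, 0.52 and 0.30 in the CD103-CD69+ libraries, and -2.34 and -1.97 in the CD103-CD69- libraries, so the subsets lay in this order without overlap, with the larger step to the CD103-CD69- cells. Between the CD69+ subsets the median of this list was above 0 where those of the T-cell, effector and proliferation lists were below it. Against the CD103-CD69- cells, the CD103-CD69+ cells had medians of 2.57 in epithelium, -0.06 in T-cell identity and 0.19 in proliferation genes. The part of the epithelial signal in the differences between the CD69+ subsets was not tested.

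Of 13 myeloid genes 1 was called higher, Cst3, a secreted protease inhibitor abundant in macrophages, with levels of 2.98, 3.25 and 3.19 against 1.98, 1.86 and 2.65 (difference 0.98, adjusted p = 0.0192). The call ended without CD103-CD69+ replicate 1 or 2 (0.0617 and 0.0745), and no myeloid gene was called with array weights for each group. Among all genes, 5.92% were called higher and 11.5% lower. The list had a median of 0.44 and a centred mean between 0.19 and 0.63 in the CD103+CD69+ libraries, between -0.34 and 0.10 in the CD103-CD69+ libraries and between -0.63 and -0.57 in the CD103-CD69- libraries, and its part in the differences was not tested. Among 6 stromal genes Postn, a matrix protein, was called lower (difference -1.86, adjusted p = 0.0228), but not without CD103+CD69+ replicate 3 or CD103-CD69+ replicate 3 (0.0781 and 0.0954). The stromal median of 0.12 was -0.30 without CD103+CD69+ replicate 2. Among 3 dendritic genes Itgax, which activated CD8 T cells also express, was called lower (difference -1.37, adjusted p = 0.0369) and lost the call without CD103+CD69+ replicate 3 or any 1 of the CD103-CD69+ libraries (0.0576 to 0.154). Of 6 genes of CD4 and regulatory T cells Zbtb7b, the CD4 lineage factor ThPOK, was called higher (difference 1.13, adjusted p = 0.0084) and Il2ra lower, while Cd4, picked after its values were seen, differed by 0.06 (adjusted p = 0.944). Without both libraries numbered 3 no stromal or dendritic gene was called, and with array weights for each group none of these 3 lists had a call. None of the genes listed for neutrophils (Mmp9 and Csf3r, 0.68 and 0.66), endothelium (Eng and Pecam1, 0.68 and -0.06), B cells (6 genes, with Igkc at -0.98 and Ighm at -0.79), NK and gamma-delta cells (Tcrg-C2 and Klrb1c, 0.78 and -0.17) or erythroid cells (Hba-a2 and Alas2, 1.06 and 0.14) was called by limma, with adjusted p between 0.056 and 0.913 for those named here. An unadjusted p below 0.05 was found for 1 of the 6 B cell genes and for 0 in the other 4 lists. Ighm was called without CD103+CD69+ replicate 1 or 2 (0.039 and 0.0428).

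The difference between the subsets at week 1 was not that of the later weeks. The same contrast averaged over weeks 2, 4 and 6 had 44 called genes (0.417%). A test of the week 1 difference minus the mean later difference called 1557 genes (14.7%), 604 higher (5.72%) and 953 lower (9.02%), 505 genes with a spread for each group, and 876 without the 2 libraries numbered 3; 30% of genes had an unadjusted p below 0.05. Glul differed by 3.03 at week 1 and by -0.45, 0.37 and -0.04 at weeks 2, 4 and 6 (week 1 minus later 3.07, SE 0.26, adjusted p = 4.91e-07). Cd8a differed by -1.22 at week 1 and by -0.09, -0.64 and -0.20 later (-0.91, SE 0.16, adjusted p = 0.000713). Ifng differed by -2.46 and by -0.41, -0.48 and -0.83 (-1.89, SE 0.37, adjusted p = 0.00194). The values were thus closer to 0 at each later week in all 3 genes. Pdcd1 kept a negative value at weeks 2, 4 and 6, of -0.96, -0.67 and -1.11, and still differed between week 1 and later (-1.39, SE 0.40, adjusted p = 0.0247). Glul, Ifng and Pdcd1 were named for their large week 1 differences, which are part of this test, so that choice favoured their passing. Itgae differed by 0.81 at week 1 and by 1.38, 0.83 and 1.42 later, and its week 1 difference was not distinguished from the later one (-0.40, adjusted p = 0.722).

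By list, the week 1 difference was called lower than the later one in 19 of 39 proliferation genes, 15 of 28 interferon-stimulated genes, 9 of 20 T-cell identity genes, 9 of 17 class I presentation genes, 8 of 15 cytotoxic genes, 7 of 22 exhaustion genes and 6 of 26 resident memory genes. Such calls made up 9.02% of all genes, and these list counts were not repeated under the alternatives. For the proliferation list the median difference went from -0.79 at week 1 to -0.02, 0.02 and 0.28 in the later weeks, in order. That of the interferon-stimulated list was -0.68 and then 0.34, 0.01 and 0.40, and that of the resident memory list -0.64 and then 0.08, 0.06 and 0.17. The exhaustion list stayed below 0, at -0.99 and then -0.31, -0.06 and -0.63, as did T-cell identity, at -0.68 and then -0.21, -0.27 and -0.27. Epithelium genes had medians of 0.71 and then 0.27, -0.11 and -0.10, so this list was highest at week 1, and 1 of its 10 genes, Spint2, passed the test between week 1 and later (1.58, SE 0.25, adjusted p = 0.000329).

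**Figure D5:**
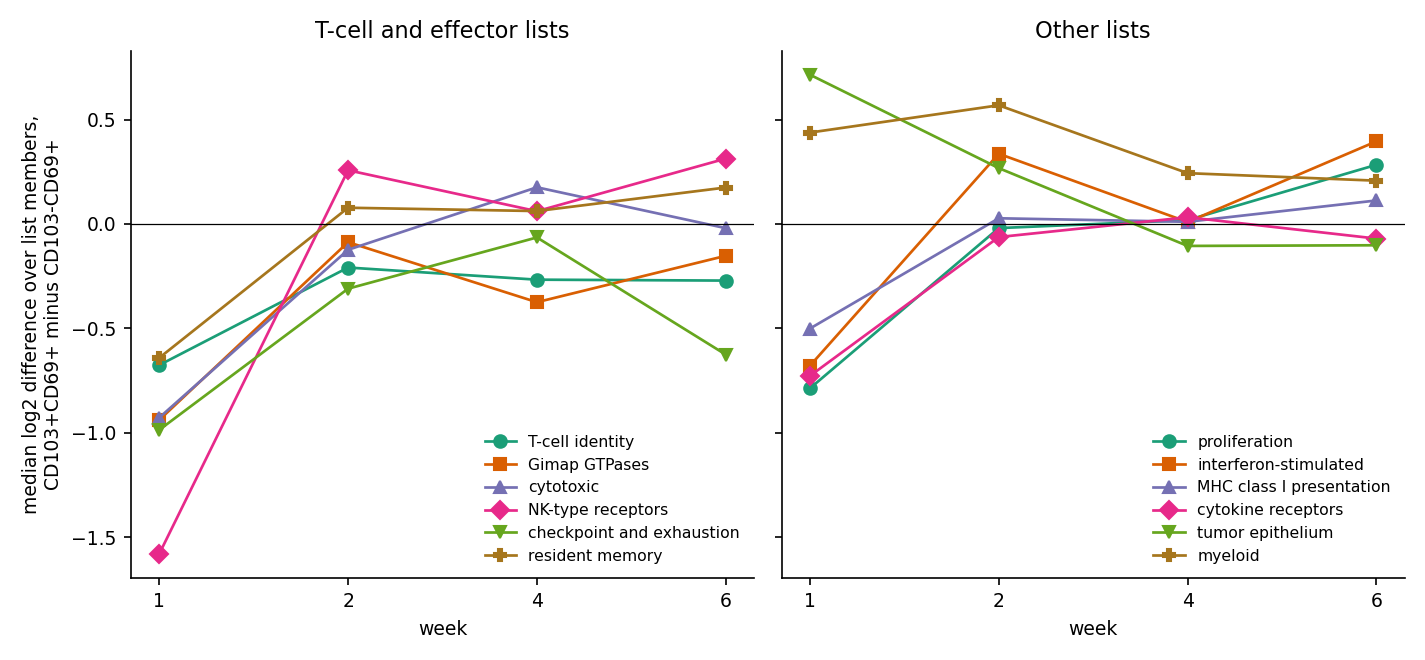
Median difference between CD103+CD69+ and CD103-CD69+ libraries over the members of 12 gene lists (vertical axis, log2) at weeks 1, 2, 4 and 6 (horizontal axis); each line is a list, and medians carry no error bar. The proliferation median was -0.79 at week 1 and between -0.02 and 0.28 later, and the epithelium median was 0.71 at week 1 and between -0.11 and 0.27 later.

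Set beside the CD103-CD69- cells of week 1, which had 2 libraries, the CD103+CD69+ cells differed in 2402 genes (22.7%) and the CD103-CD69+ cells in 767 (7.26%), 5.48% of genes higher and 1.78% lower in the latter. In the former 11.8% of genes were higher and 10.9% lower. Both comparisons share the CD103-CD69- libraries, so their values stand side by side only. In the T-cell identity list 14 of 20 genes were called lower in CD103+CD69+ and none in CD103-CD69+ cells, with medians of -0.70 and -0.06. The exhaustion list had 13 and 1 lower calls (medians -1.05 and -0.03), the interferon-stimulated list 13 and 0 (-0.79 and -0.04), and the proliferation list 15 and 0 (-0.59 and 0.19). In the epithelium list 7 and 8 of 10 genes were called higher (medians 2.94 and 2.57). Egr3, an early response factor, was higher in CD103-CD69+ cells than in CD103-CD69- cells by 1.59 (adjusted p = 0.00909), and Hspa5 by 0.78 (adjusted p = 0.0053). Leaving out CD103-CD69- replicate 1 reduced the calls to 1095 and 128, and leaving out CD103-CD69+ replicate 1 reduced the second count to 466. With group-wise spread, the counts were 485 and 72.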

How the data were processed

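Sorted CD8+ T cells were profiled by QuantSeq, and the deposited table of untreated samples gave normalized log2 values per gene. The submitters' processing notes name HISAT2, HTSeq and mm10; the normalization, its log base and the annotation are not given in the sources used here, and base 2 was inferred from the values. Depth is therefore unknown, and levels are not comparable between genes. The table's 43 libraries had a rank of 32 where 42 was possible after centring, so 10 directions of variation are absent from the deposited values, for a reason not given in the sources used here, and the residual degrees of freedom were reduced from 28 to 18 (ratio 0.643).

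A limma 3.58.1 fit (R 4.3.3, statmod 1.5.0, trend and robust options) covered 10560 genes and 15 groups, with Benjamini-Hochberg adjustment over all genes and a threshold of 0.05. All 43 untreated libraries, those of spleen naive, central memory and effector memory T cells included, shared 1 spread per gene. Alternatives were the unreduced degrees of freedom, week 1 libraries only, a spread for each group (array weights), no trend and quantile normalization. Others were a shift to 1 median, a filter on values, a replicate block and leaving out libraries. The array weights gave 1 scale factor per group, common to all genes. The fit restricted to the 6 libraries and the fit without both libraries numbered 3 were chosen after seeing the data. The script was tested on simulated data. Named genes were 4 markers, the 10 largest called and non-overlapping differences in each direction (predicted genes left out), and up to 4 called members of each of 34 lists, or 2 where none was called. The members and lists were chosen with earlier results of these data known. Figures used Python 3.11.15 and matplotlib 3.10.9. Some named genes are not reported here.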

Additional observations from a re-analysis of the deposited data

Results flagged for a closer look

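The difference between CD103+CD69+ and CD103-CD69+ cells at week 1 was set against the mean difference of weeks 2, 4 and 6 by an interaction test in limma, and 1557 genes passed it. Each value below is the week 1 difference minus the mean later difference on the log2 scale. Apart from Cd8a, the genes below were picked for their large week 1 differences, which are part of this value. That choice favours large values and passes, so these are no separate evidence. Among genes higher at week 1, the value was 3.07 for Glul, 3.01 for Slc12a2, 2.55 for Rnf128, 2.54 for Aipl1, 2.18 for Rny3, 2.17 for Cd164, 2.08 for Smim6, 1.84 for Agps and 1.62 for Marcks, with adjusted p between 1.41e-08 and 0.0377. Cst6, with a value of 2.21, did not pass (adjusted p = 0.0812).

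Among genes lower at week 1, the value was -6.77 for Klra13-ps, -3.95 for Cep72, -3.73 for Fpgt, -3.15 for Xlr3b, -3.12 for Rasl11b, -2.99 for Lin52, -2.99 for Gcsh, -2.82 for AL672278.1, -1.89 for Ifng, -1.39 for Pdcd1 and -0.91 for Cd8a, with adjusted p between 0.000713 and 0.0396. The sign of the mean later difference of Klra13-ps was opposite, at 1.89, while that of Pdcd1 was the same, at -0.91.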

How the results depend on the processing

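The count of 1835 genes between the CD69+ subsets stayed within 1.5 times its value in 11 of 16 alternatives. It was 3400 with unreduced degrees of freedom, 845 with week 1 libraries only, 552 with a spread for each group, 822 in the 6 libraries alone and 1028 without both libraries numbered 3, and 1371 to 1955 when 1 library was left out. The 1557 interaction calls became 3249, 2921 (CD69+ tumor libraries only), 505 and 876 (without both numbered 3), and 1183 to 1770 on leaving out 1 library. Against CD103-CD69- cells, the 2402 calls of CD103+CD69+ cells became 3919, 1366 and 485, and 1095 to 2406 on leaving out 1 library; the 767 calls of CD103-CD69+ cells became 2345, 151 and 72, and 128 to 783, with 466 without CD103-CD69+ replicate 1. With the replicate block there were 2343 calls between the CD69+ subsets and 3238 in the interaction. Same-numbered week 1 libraries deviated together at correlations of 0.0952, 0.126 and 0.372, and each CD103+CD69+ library correlated best with its own number. Their sample codes also lie close together. The labels do not name pairs, so the main fit used none, and whether the libraries are paired was not settled. All 100 called named genes kept their direction in those of the 16 alternatives that held them, and 42 kept the call in each of these. The 42 include Rny3, Ccl5 and Rrm2, which the filter on values left out. The call was lost by 50 with a spread for each group and by 30 with week 1 libraries only. It was lost by 40 without both libraries numbered 3, and by none under the block. Signs changed only among named genes that were not called: Pecam1, -0.06, was 0.0284 after quantile normalization, 0.0212 after the median shift, 0.0331 without both numbered 3 and -0.279 to 0.0776 on leaving out 1 library; Alas2, 0.14, was -0.0381 to 0.482, and Tcrg-C2, 0.78, was -0.484 to 1.80, on leaving out 1 library; and Klrb1c, -0.17, was 0.0461 without both numbered 3. The cause was not tested. Depth is unknown, so no limit of detection can be given.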
